A study of Homo sapiens with 12 samples.

Results

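The comparison described here is the difference between 2 knockdown responses in one cell line: the change of each gene's RNA with HDAC5 shRNA minus its change with LSD1 shRNA. It drew on all 12 arrays of the series and on all 11963 genes that a probe set with a single gene symbol measured, 1 probe set per gene, namely the one whose average across the 12 arrays was highest. The cells were MDA-MB-231, a long-established triple-negative breast cancer line with mesenchymal traits, grown under normal culture conditions and transduced with lentiviral shRNA particles. The groups held 3 biological replicates each: untagged scramble shRNA, HDAC5 shRNA, a second set of scramble shRNA cells tagged LSD1 in the labels, and LSD1 shRNA. The HDAC5 change was taken against the untagged scramble arrays and the LSD1 change against the scramble arrays tagged LSD1. No label ties the untagged scramble to the HDAC5 experiment: it was placed there since the LSD1 tag marks the other set, and since HDAC5 shRNA follows the first scramble group in the design text. All groups share the shRNA vector treatment, and the 2 comparisons share no array. Each enzyme was knocked down in an experiment of its own, so enzyme and experiment cannot be told apart, and the sources used here give neither the hairpin sequences nor the time of harvest, nor whether pooled or clonal cells were used.

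HDAC5 is a class IIa histone deacetylase that shuttles between cytoplasm and nucleus and represses genes through MEF2 factors and the NCoR/SMRT corepressors. LSD1, encoded by KDM1A, is a flavin-dependent demethylase that removes methyl groups from histone H3 lysine 4 and works in the CoREST complex together with histone deacetylases. Both enzymes are known mainly as corepressors, and the contrast asks which genes respond to both knockdowns and which to one of them.

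Each target fell in its own experiment. HDAC5 had log2 values of 7.56, 7.42 and 7.22 on the untagged scramble arrays and 6.17, 6.19 and 6.5 on the HDAC5 shRNA arrays. It had 7.22, 7.80 and 6.85 on the tagged scramble arrays and 7.32, 8.15 and 7.10 on the LSD1 shRNA arrays. HDAC5 RNA fell 2.16-fold with its own shRNA without overlap of the arrays. Its LSD1 change of 0.23 (SE 0.33) lay within the spread, and the difference of the changes was called (limma, adjusted p = 0.0173). Lack of overlap was common: it held for 50.8% of all genes in the HDAC5 experiment and 27% in the LSD1 experiment. KDM1A had 9.55, 9.60 and 9.54 on the untagged scramble arrays and 9.62, 9.54 and 9.55 with HDAC5 shRNA. It had 9.61, 9.76 and 9.78 on the tagged scramble arrays and 6.48, 6.81 and 6.60 with LSD1 shRNA. KDM1A RNA thus fell 8.48-fold with its own shRNA and moved by 0.01 (log2, SE 0.04) with HDAC5 shRNA. The falls of HDAC5 and KDM1A were read from different probe sets, so their sizes do not compare the depth of knockdown between the experiments.

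As background, E2F factors are known to act on promoters of DNA replication genes, factors at the cell cycle genes homology region (CHR) on those of mitotic genes, ATF4 with C/EBP on those of amino acid genes, and interferon-activated factors on those of interferon genes. The 250 bases before the RefSeq start of 6 genes that stand for these classes are given here, 5′ to 3′ on the gene's strand and from RefSeq on GRCh38.p14, with a match to the searched motif in capitals. CDC25A and GINS2 stand for genes that rose with HDAC5 shRNA and hold an E2F match, NCAPG for genes that rose with HDAC5 shRNA and fell with LSD1 shRNA and holds a CHR match, and ASNS for the amino acid genes that fell with HDAC5 shRNA and holds an ATF4-C/EBP match. A CHR match is no trait of NCAPG's class: 12.5% of its promoters held one, against 11% of all promoters. IFI44 and IFI44L, interferon-induced neighbours on chromosome 1, were classed as rising with both shRNAs and as LSD1-specific, respectively, and hold interferon element matches.
CDC25A (chr3:48188418-48188667, minus strand): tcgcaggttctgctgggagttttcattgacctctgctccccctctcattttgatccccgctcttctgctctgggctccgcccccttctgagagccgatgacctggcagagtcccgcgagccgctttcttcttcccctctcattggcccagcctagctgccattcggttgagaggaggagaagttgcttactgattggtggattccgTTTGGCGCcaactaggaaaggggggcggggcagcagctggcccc
GINS2 (chr16:85688955-85689204, minus strand): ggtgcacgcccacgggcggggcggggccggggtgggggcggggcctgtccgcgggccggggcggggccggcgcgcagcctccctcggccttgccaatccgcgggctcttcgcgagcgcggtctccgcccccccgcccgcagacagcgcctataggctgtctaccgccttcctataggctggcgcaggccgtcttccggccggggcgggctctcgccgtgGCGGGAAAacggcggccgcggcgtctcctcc
NCAPG (chr4:17810729-17810978, plus strand): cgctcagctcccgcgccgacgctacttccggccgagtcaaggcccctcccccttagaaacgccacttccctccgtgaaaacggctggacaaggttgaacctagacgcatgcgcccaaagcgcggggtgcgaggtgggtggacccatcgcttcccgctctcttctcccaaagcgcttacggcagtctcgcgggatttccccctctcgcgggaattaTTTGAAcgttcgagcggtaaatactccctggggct
ASNS (chr7:97872409-97872658, minus strand): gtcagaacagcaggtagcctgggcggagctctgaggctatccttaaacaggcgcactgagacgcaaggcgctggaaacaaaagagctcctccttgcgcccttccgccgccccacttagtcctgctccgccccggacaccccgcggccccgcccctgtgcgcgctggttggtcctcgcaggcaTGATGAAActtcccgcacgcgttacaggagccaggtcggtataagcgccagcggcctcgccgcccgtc
IFI44 (chr1:78649539-78649788, plus strand): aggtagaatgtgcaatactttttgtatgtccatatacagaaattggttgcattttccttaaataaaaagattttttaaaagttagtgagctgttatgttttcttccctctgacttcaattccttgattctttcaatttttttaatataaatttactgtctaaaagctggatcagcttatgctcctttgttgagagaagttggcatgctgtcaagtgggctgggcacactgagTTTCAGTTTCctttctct
IFI44L (chr1:78620198-78620447, plus strand): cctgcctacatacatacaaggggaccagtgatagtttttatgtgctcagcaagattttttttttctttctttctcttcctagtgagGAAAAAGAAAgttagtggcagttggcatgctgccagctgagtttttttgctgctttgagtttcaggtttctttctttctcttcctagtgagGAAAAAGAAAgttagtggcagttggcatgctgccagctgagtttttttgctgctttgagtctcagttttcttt
Counted from its first base, the match lay 44 bases before the start in CDC25A, 31 in GINS2 (on the opposite strand), 35 in NCAPG, 68 in ASNS, 18 in IFI44 (on the opposite strand), and 164 and 73 in IFI44L. A match is a run of letters in this window, and binding was not measured.

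The changes of 3803 of 11963 genes differed between the knockdowns (31.8%; limma with Benjamini-Hochberg adjusted p under 0.05, the threshold for every call below). The difference was above 0, that is, higher with HDAC5 shRNA than with LSD1 shRNA relative to the respective scramble, for 1877 genes (15.7%) and below 0 for 1926 genes (16.1%). It reached 2-fold or more for 903 of them, 378 above 0 and 525 below 0. Taken by itself, HDAC5 shRNA changed 5319 genes (44.5%) and LSD1 shRNA 589 genes (4.92%). The arrays of the LSD1 experiment were more spread: the median standard error of a log2 change was 0.065 with HDAC5 shRNA and 0.106 with LSD1 shRNA, so the numbers of calls do not compare the sizes of the responses.

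Genes called with both shRNAs numbered 327. Of the genes called with HDAC5 shRNA, 6.15% were also called with LSD1 shRNA, beside 4.92% of all genes. Of the genes called with LSD1 shRNA, 55.5% were also called with HDAC5 shRNA, beside 44.5% of all genes. Among the 327, 119 moved in the same direction (concordant, 0.995% of all genes) and 208 in opposite directions (opposite, 1.74%). HDAC5-specific genes, called with HDAC5 shRNA, not called with LSD1 shRNA with a log2 change there under 0.5 in size, and called for the difference, numbered 2472 (20.7%). LSD1-specific genes by the mirrored rule numbered 259 (2.17%). A further 2216 genes were called with HDAC5 shRNA alone but not for the difference, so that no enzyme-specific response can be read for them, and 304 were called for the difference with an uncalled LSD1 change of 0.5 or more. Of the LSD1 calls, 3 fell outside the classes because the difference was not called. For 503 genes the difference was called although neither change was. Across the 11963 genes the 2 changes had Pearson r = -0.19 and Spearman rho = -0.2, a description over genes, which are not independent.

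**Figure D1:**
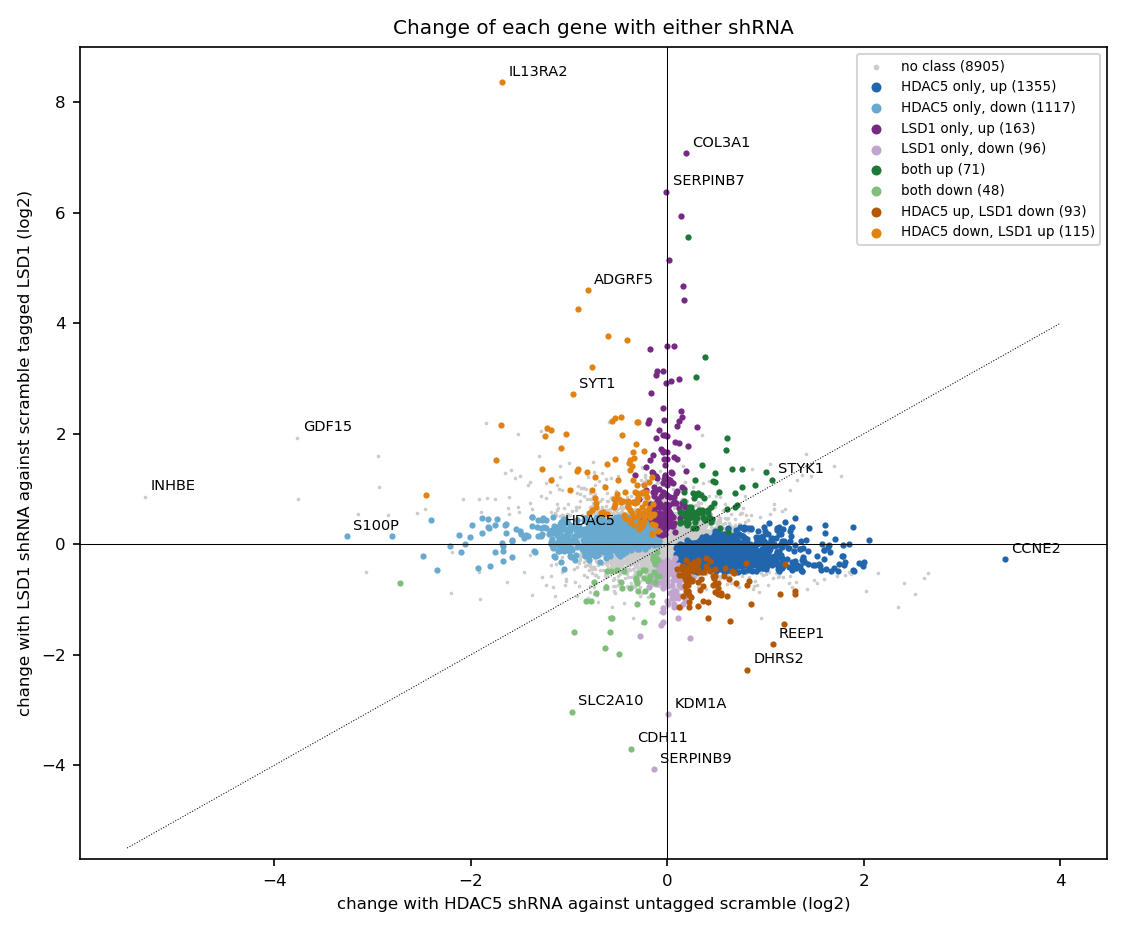
Change of each of the 11963 genes with HDAC5 shRNA (x axis, log2, against untagged scramble) and with LSD1 shRNA (y axis, log2, against the scramble tagged LSD1), with 1 point per gene coloured by class and the dotted line marking equal changes. Most coloured points lie along the horizontal axis (HDAC5-specific), IL13RA2, COL3A1 and SERPINB7 lie far up and SERPINB9 far down the vertical axis, and few points follow the dotted line.

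A single array weighed on the LSD1 side. LSD1 shRNA replicate 2 stood apart from the other LSD1 shRNA arrays: its deviation from the tagged scramble mean had r = -0.47 with the HDAC5 change across genes, against 0.0 and 0.03 for replicates 1 and 3. The scramble arrays tagged A, B and C had r = 0.31, -0.34 and -0.05, and without LSD1 shRNA replicate 2 the r between the 2 changes was 0.02. The array medians were 6.59 to 6.65 in the HDAC5 experiment and 7.05 to 7.15 in the LSD1 experiment. The actin 3′ minus 5′ probe difference, a sign of RNA or labelling quality, was 0.9 ± 0.06 (SD, n = 3) for untagged scramble and 0.68 ± 0.08 for HDAC5 shRNA, against 1.3 ± 0.06 for the tagged scramble and 1.43 ± 0.12 for LSD1 shRNA; its part in the differences was not tested. The line's mesenchymal markers were high on all arrays (VIM 13.5 to 13.8 in the group means). The term lower quartile of genes stands throughout for the lower quartile of the values on an array. It was 4.59 to 4.65 in the HDAC5 experiment and 5.18 to 5.27 in the LSD1 experiment. A quartile over 1 probe set per gene, the one with the highest average, could lie higher. PGR lay below the quartile used here in all 4 groups and CDH1 in 3 of them. ESR1 (5.59 to 6.42), ERBB2 (8.26 to 9.05) and EPCAM (7.21 to 8.72) did not lie below it, with ESR1 the nearest.

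Concordant genes were few. A call with LSD1 shRNA needed a larger change than one with HDAC5 shRNA, because the standard errors were larger there, so larger LSD1 changes among genes called with both follow in part from the choice of genes and are given as a description. The 71 genes that rose with both had a median change of 0.32 with HDAC5 shRNA and 0.61 with LSD1 shRNA, and the 48 genes that fell with both had medians of -0.31 and -0.69 (log2). The difference itself was called for 57 of the 119, and for 54 of these the LSD1 change was the larger. For the other 62 the difference was not called, which does not show that their changes were equal. Both changes reached 2-fold in the same direction for 2 genes, STYK1 and IFI44, and in both a second probe set gave smaller HDAC5 changes.

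STYK1, a receptor-like kinase, had log2 values of 5.11, 4.74 and 4.91 on untagged scramble arrays and 5.82, 6.15 and 5.97 with HDAC5 shRNA. It had 7.03, 7.24 and 7.16 on tagged scramble arrays and 8.29, 8.24 and 8.41 with LSD1 shRNA. The shRNA arrays lay above their scramble arrays in both experiments, the rises were 1.06 and 1.17, and the difference of -0.11 had a 95% interval of -0.45 to 0.23. The other STYK1 probe set had changes of 0.41 and 0.91, with a called difference of -0.51 (limma adjusted p = 0.00438), so the near-equal rise was that of 1 probe set. IFI44, an interferon-induced gene, had 9.17, 9.26 and 9.19 against 10.14, 10.19 and 10.30 with HDAC5 shRNA. On the arrays of the LSD1 experiment it had 9.35, 9.05 and 9.09 against 10.26, 10.48 and 10.68. IFI44 rose 2.0-fold with HDAC5 shRNA and 2.48-fold with LSD1 shRNA, with a difference of -0.31 (interval -0.64 to 0.03) that was called without LSD1 shRNA replicate 1 (-0.42, limma adjusted p = 0.0415). A second IFI44 probe set had changes of 0.17 and 1.03, with an uncalled difference of -0.86. The basement membrane collagen COL15A1 rose by 0.89 and 1.08, the protocadherin PCDH9 by 0.76 and 1.04 (a second probe set had changes of -0.16 and 0.1), and the LIM-domain cofactor LMO3 by 0.76 and 1.36. The difference for LMO3, -0.6, was called without LSD1 shRNA replicate 2 (-0.8, limma adjusted p = 0.0112). COL15A1 lay below the lower quartile of genes in the LSD1 experiment, where changes are least certain.

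Among the genes that fell with both, EGFR, the receptor of epidermal growth factor and a hallmark of basal-like breast cancer, had 10.17, 10.22 and 10.40 on untagged scramble arrays and 9.52, 9.53 and 9.41 with HDAC5 shRNA. It had 11.16, 11.29 and 11.03 on tagged scramble arrays and 10.14, 10.34 and 9.93 with LSD1 shRNA. The falls were 1.71-fold and 2.03-fold with no overlap in either experiment, and the difference of 0.24 had an interval of -0.08 to 0.57. The 5 other EGFR probe sets had HDAC5 changes of -0.72, -0.42, 0.07, 0.06 and -0.37. Their LSD1 changes were -0.39, -0.18, 0.03, 0.04 and -0.14, so the 2.03-fold fall was that of 1 probe set. Their differences lay between -0.33 and 0.04, none of them called. CLGN, an endoplasmic reticulum chaperone, had changes of -0.83 and -1.03, and COL6A2, a collagen VI chain, had changes of -0.73 and -0.89; a second COL6A2 probe set had -0.73 and -0.18, with a called difference of -0.55 (limma adjusted p = 0.0167). FAM149A had changes of -0.95 and -1.59. The glucose transporter SLC2A10 had changes of -0.97 with HDAC5 shRNA and -3.03 with LSD1 shRNA, and there the difference was called (2.07, limma adjusted p = 0.00796). The LSD1 shRNA means of FAM149A and SLC2A10 lay below the lower quartile of genes, so the sizes of these falls are uncertain. Other concordant genes with unequal changes, picked out after their values were seen, included the tetraspanin TSPAN8, which rose by 0.21 with HDAC5 shRNA and 5.56 with LSD1 shRNA, the cadherin CDH11 with -0.37 and -3.70, and the fucosyltransferase FUT1 with -2.72 and -0.71.

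Opposite genes had the larger change with LSD1 shRNA in 181 of 208, to which the same selection applies, and a called difference follows in most from the calls that define the class. The 93 genes that rose with HDAC5 shRNA and fell with LSD1 shRNA had medians of 0.31 and -0.61, and the 115 genes with the reverse pattern had medians of -0.38 and 0.81. Both changes reached 2-fold for 2 and 10 genes of these groups.

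The strongest of the first pattern included genes of cell division. NCAPG, a condensin subunit that compacts mitotic chromosomes, had 9.07, 8.94 and 9.10 on untagged scramble arrays and 10.28, 10.17 and 10.24 with HDAC5 shRNA. It had 11.06, 10.81 and 11.05 on tagged scramble arrays and 9.74, 9.05 and 9.82 with LSD1 shRNA. All HDAC5 shRNA arrays lay above their scramble arrays and all LSD1 shRNA arrays below theirs, with changes of 1.19 and -1.44, and LSD1 shRNA replicate 2 was the lowest; without it the LSD1 change was -1.19. The nuclear lamin gene LMNB1 had changes of 1.3 and -0.9 and PLK4, the kinase that starts centriole duplication, 1.3 and -0.84. REEP1, which shapes the endoplasmic reticulum, had 5.84, 5.74 and 5.70 against 6.89, 6.76 and 6.83 in the HDAC5 experiment and 6.74, 7.13 and 7.11 against 5.18, 5.20 and 5.15 in the LSD1 experiment. Its changes were 1.07 and -1.81, and LSD1 shRNA replicate 2 lay close to the other LSD1 shRNA arrays. The LSD1 shRNA mean of REEP1 lay below the lower quartile of genes. DHRS2, a short-chain dehydrogenase/reductase, had changes of 0.81 and -2.27, and a second DHRS2 probe set had smaller ones of 0.57 and -0.78.

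The reverse pattern held the largest difference of all opposite genes. IL13RA2, a decoy receptor of interleukin 13, had 6.95, 7.27 and 6.60 on untagged scramble arrays and 4.90, 5.36 and 5.52 with HDAC5 shRNA. It had 3.78, 3.11 and 3.11 on tagged scramble arrays and 11.29, 12.12 and 11.70 with LSD1 shRNA. IL13RA2 fell by 1.68 with HDAC5 shRNA and rose by 8.37 with LSD1 shRNA from a level below the lower quartile of genes, and the difference was -10.05 (interval -10.82 to -9.27; limma adjusted p = 1.91e-08). ADGRF5, an adhesion G-protein-coupled receptor, had 11.43, 11.37 and 11.45 against 10.48, 10.72 and 10.62 in the HDAC5 experiment and 6.36, 7.75 and 5.82 against 11.25, 12 and 10.47 in the LSD1 experiment. Its changes were -0.81 and 4.6, with a wide spread among the arrays of the LSD1 experiment (SE 0.56) and a narrow one in the HDAC5 experiment (SE 0.06). RGS7, a regulator of G-protein signalling, had changes of -0.91 and 4.26, although a second RGS7 probe set gave a difference of 0.07 that was not called. The ubiquitin ligase gene RNF128 had changes of -0.6 and 3.76 and the transporter gene ABCA8 -0.77 and 3.21. RNF128 was below the lower quartile of genes in 3 of the groups, and ABCA8 in the tagged scramble group.

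HDAC5-specific genes made up the largest class, 1355 up and 1117 down, with median HDAC5 changes of 0.47 and -0.45. Their median LSD1 changes were -0.16 and 0.18; the rule asks for a called difference and so favours genes whose LSD1 change goes against the HDAC5 change, and an uncalled LSD1 change is part of it. For 320 of the 2472 genes the uncalled LSD1 change was at least as large in size as the HDAC5 change, so absence of a call does not mean that LSD1 shRNA left the gene unmoved. The HDAC5 change reached 2-fold for 146 genes up and 120 down.

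CCNE2, the cyclin E2 that drives entry into S phase with CDK2, led the rising genes. It had 7.19, 6.42 and 6.71 on untagged scramble arrays and 10.18, 10.33 and 10.14 with HDAC5 shRNA. It had 10.56, 10.60 and 10.70 on tagged scramble arrays and 11.01, 9.29 and 10.75 with LSD1 shRNA. The rise with HDAC5 shRNA was 10.9-fold, the LSD1 change was -0.27 (SE 0.42) with replicate 2 low and the other arrays above scramble, and the difference was 3.71 (interval 2.65 to 4.77; limma adjusted p = 0.000208). CDC25A, the phosphatase that activates CDK2, had 6.47, 6.30 and 6.38 against 8.44, 8.26 and 8.44 in the HDAC5 experiment and 9.59, 9.34 and 9.39 against 9.43, 8.21 and 9.68 in the LSD1 experiment. Its HDAC5 change was 2.0, and its LSD1 change of -0.33 became 0.11 without replicate 2. A second CDC25A probe set had changes of 0.82 and -0.39, with a called difference of 1.21 (limma adjusted p = 0.0127). MCM5, a subunit of the replicative helicase, GINS4, a subunit of the GINS complex that activates it, and CDCA3, which promotes mitotic entry, rose with HDAC5 shRNA by 1.9, 1.89 and 1.99. Their LSD1 changes were -0.49, -0.47 and -0.4, and -0.17, -0.24 and -0.03 without replicate 2.

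S100P, a small calcium-binding protein, led the falling genes. It had 10.95, 11.07 and 10.84 on untagged scramble arrays and 7.64, 7.67 and 7.79 with HDAC5 shRNA. It had 6.55, 7.96 and 7.38 on tagged scramble arrays and 6.81, 8.71 and 6.78 with LSD1 shRNA. S100P fell 9.55-fold in the first experiment and overlapped between groups in the second. NUPR1, a stress-induced nuclear protein, had 8.36, 8.44 and 8.20 against 5.59, 5.54 and 5.46 in the HDAC5 experiment and 6.32, 6.47 and 6.56 against 6.54, 6.86 and 6.39 in the LSD1 experiment. The fall of 6.98-fold stood beside an LSD1 change of 0.14 (SE 0.14), and 0.01 without replicate 2, so its arrays hardly moved on the LSD1 side. The lysosomal membrane protein LAMP3 fell by 2.41, the complement C1r-like protease C1RL by 1.89 and the cytokine TNFSF15 by 1.99 with HDAC5 shRNA. TNFSF15 was below the lower quartile of genes in every group but untagged scramble, and C1RL in the HDAC5 shRNA and tagged scramble groups.

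LSD1-specific genes were 163 up and 96 down, with median LSD1 changes of 0.82 and -0.59 and median HDAC5 changes of -0.02 and 0.02. The LSD1 change reached 2-fold for 65 genes up and 15 down. Of the rising genes named here, COL3A1, SERPINB7, SPP1 and EPB41L3 lay below the lower quartile of genes in every group but LSD1 shRNA, so their levels there are near the floor of the array.

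COL3A1, a fibrillar collagen chain, had 3.66, 3.49 and 3.79 on untagged scramble arrays and 3.85, 3.82 and 3.83 with HDAC5 shRNA. It had 3.47, 4.68 and 4.80 on tagged scramble arrays and 11.46, 11.21 and 11.51 with LSD1 shRNA. COL3A1 was below the lower quartile of genes in the first 3 groups and rose by 7.08 with LSD1 shRNA, with a difference of -6.89 (limma adjusted p = 5.77e-07); of the other COL3A1 probe sets, 2 had called differences and the third gave 0.00. SERPINB7, a clade B serine protease inhibitor, had 4.45, 4.29 and 4.35 against 4.35 on each HDAC5 shRNA array, and 4.66, 4.62 and 4.53 against 10.60, 11.13 and 11.23 in the LSD1 experiment. The LSD1 rise of 6.38 stood beside an HDAC5 change of -0.01. SPP1, the secreted phosphoprotein osteopontin, rose by 5.94 and EPB41L3, a membrane skeleton protein, by 5.14, with HDAC5 changes of 0.14 and 0.02. IFI44L, the neighbour of IFI44, had 5.72, 5.72 and 5.58 against 5.66, 6.08 and 5.78 in the HDAC5 experiment and 3.66, 4.35 and 4.00 against 8.47, 8.85 and 8.71 in the LSD1 experiment. IFI44L rose 25.5-fold with LSD1 shRNA, a size that rests on tagged scramble values below the lower quartile of genes, and had a change of 0.16 (SE 0.1) with HDAC5 shRNA. The second IFI44 probe set had the same pattern, so the contrast between the neighbours rests on 1 IFI44 probe set.

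SERPINB9, the inhibitor of granzyme B, led the falling genes, ahead of the target KDM1A. It had 6.44, 6.40 and 6.45 on untagged scramble arrays and 6.12, 6.36 and 6.38 with HDAC5 shRNA. It had 7.51, 7.89 and 7.33 on tagged scramble arrays and 3.48, 3.62 and 3.40 with LSD1 shRNA. The LSD1 change was -4.07 and the HDAC5 change -0.14, but a second SERPINB9 probe set gave a difference of 0.26 that was not called. The LSD1 shRNA mean of SERPINB9 lay below the lower quartile of genes, so the size of its fall is uncertain. The Mediator subunit MED28 had an LSD1 change of -1.34, the transcription activator CAMTA1 -1.7 and the surface glycoprotein CD24 -1.46. All 5 other CD24 probe sets had called differences in the same direction, from 0.63 to 1.5, and CAMTA1 was below the lower quartile of genes in all 4 groups.

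**Figure D2:**
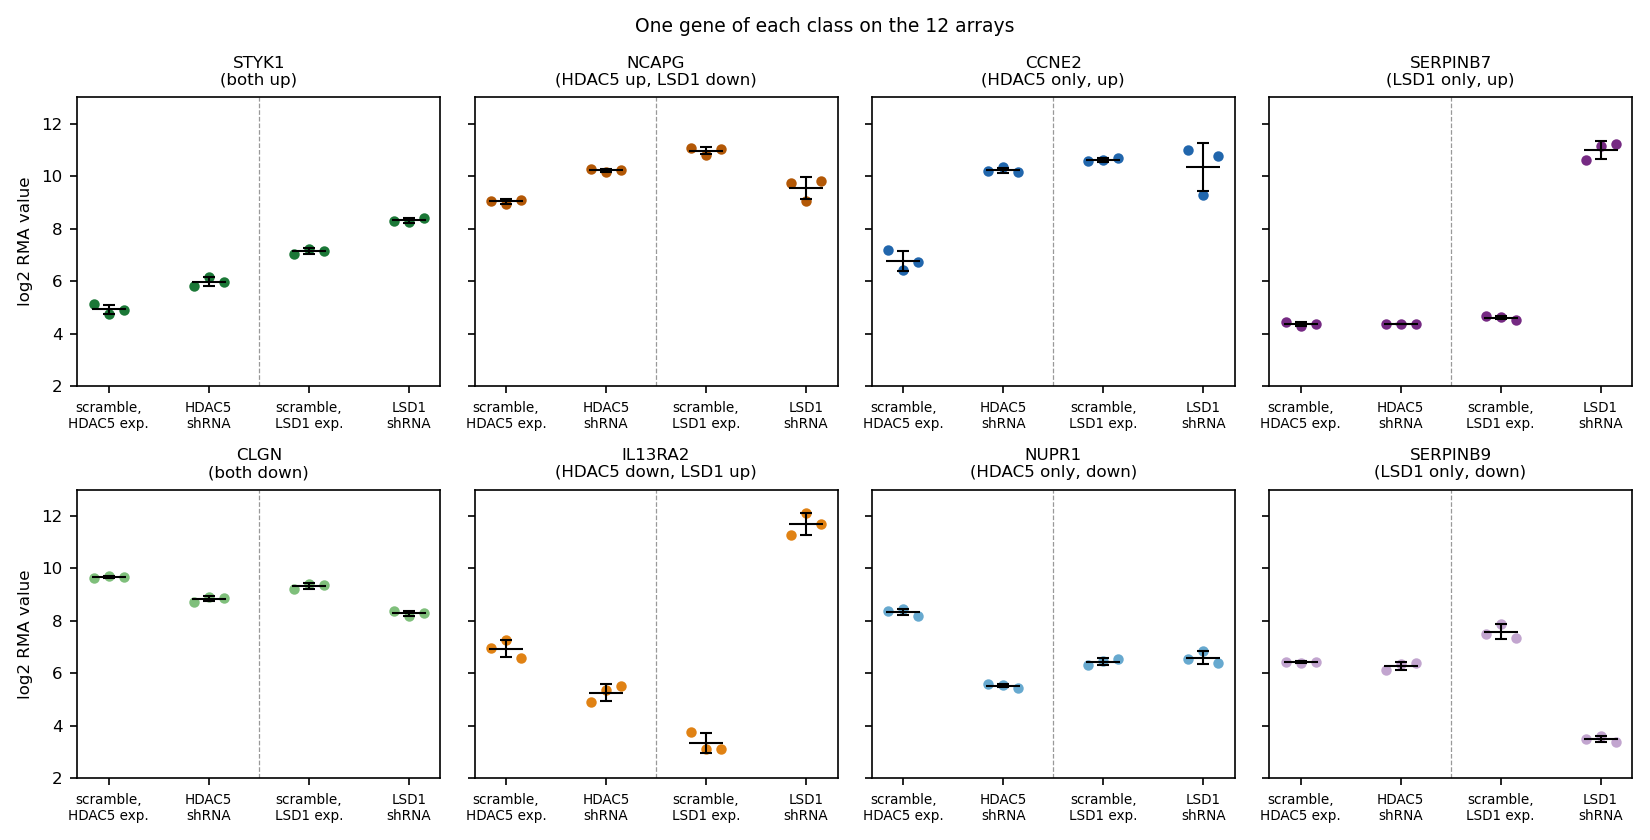
Values of 1 gene from each class on the 12 arrays (y axis, log2 RMA value; points are arrays in replicate order, horizontal lines group means and error bars SD, n = 3), with a dashed line between the experiments. STYK1 and CLGN move the same way on both sides, NCAPG and IL13RA2 opposite ways, CCNE2 and NUPR1 on the left side, and SERPINB7 and SERPINB9 on the right side.

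The gene lists place these classes in pathways. They are described by their counts beside the share of all genes called for the difference, 15.7% above 0 and 16.1% below 0. Of all 11963 genes, HDAC5 shRNA raised 2549 and lowered 2770, and LSD1 shRNA raised 350 and lowered 239 by call. At an unadjusted p under 0.05 (limma), 1433 of all genes were higher and 1196 lower with LSD1 shRNA. The difference at that threshold was above 0 for 2366 genes and below 0 for 2547. Genes of DNA replication were the most uniform: all 38 measured members had a difference above 0, with a median HDAC5 change of 1.41 and a median LSD1 change of -0.32, and 32 of them were HDAC5-specific. All 38 rose with HDAC5 shRNA; none was called with LSD1 shRNA by limma, where 3 were lower and none higher at an unadjusted p under 0.05. RRM2, the small subunit of ribonucleotide reductase, had 9.89, 9.62 and 9.86 against 12.29, 12.31 and 12.33 in the HDAC5 experiment and 12.93, 12.73 and 12.97 against 12.36, 10.99 and 12.58 in the LSD1 experiment. The HDAC5 shRNA arrays lay near the tagged scramble arrays of the other experiment and LSD1 shRNA replicate 2 far below them. GINS2, a GINS subunit, and MCM10, a replication initiation factor, had differences of 3.18 and 3.11. The mean of the list relative to its own scramble was 1.42, 1.42 and 1.46 on the HDAC5 shRNA arrays and -0.11, -0.80 and -0.04 on the LSD1 shRNA arrays. The LSD1 side of the list therefore lay mostly in replicate 2, and without it the median LSD1 change was -0.09 and the median difference 1.41, still with 38 of 38 called.

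The scramble controls themselves differed for these genes. The mean log2 value of the replication list was 8.47 to 8.57 on untagged scramble arrays, 9.92 to 9.97 on HDAC5 shRNA arrays, 10.46 to 10.51 on tagged scramble arrays, and 10.37, 9.68 and 10.44 on LSD1 shRNA arrays. After quantile normalization of the 12 arrays together, the median gap between the untagged and the tagged scramble was -1.71 and that between the HDAC5 and LSD1 shRNA arrays 0.18. The same scramble values enter the difference, so this gap is another view of it and no second result, and its cause was not tested.

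Of the E2F, E cyclin and RB family, 10 of 17 measured members had a difference above 0 and 3 below. The atypical repressor E2F8, itself an E2F target, had a difference of 3.22, E2F1 rose with HDAC5 shRNA by 0.89 and RBL2, the p130 pocket protein, fell by 0.74 as the single HDAC5-specific member that fell. Of the mitosis genes, 32 of 33 had a difference above 0, with median changes of 0.88 and -0.31. All 33 rose with HDAC5 shRNA, and CCNA2, cyclin A2, was the 1 member also called with LSD1 shRNA, with changes of 1.15 and -0.9. KIF20A, a kinesin of cytokinesis, had a difference of 2.04, and FOXM1, the factor that switches on late cell cycle genes, 2.02 from changes of 1.56 and -0.46. The list means on the LSD1 shRNA arrays were -0.07, -0.73 and -0.25. Of the CDK inhibitors and p53 targets, 6 of 19 had a difference above 0 and 3 below, with GADD45A, a stress-induced growth arrest gene, at -1.25, ZMAT3 at -1.07 and DDB2, a DNA repair gene, at 0.87.

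The ATF4 stress response and the amino acid genes it is known to control moved the other way. Of the 20 measured ATF4 list genes, 13 had a difference below 0 and none above, with median changes of -1.16 and 0.08, and of the 30 amino acid synthesis, transport and tRNA charging genes, 25 had a difference below 0 and none above, with medians of -1.01 and 0.11. At an unadjusted p under 0.05 (limma), 1 ATF4 list gene and no amino acid gene had a difference above 0. HDAC5-specific members numbered 8 and 20. INHBE, an activin subunit, had 9.14, 9.28 and 9.16 against 3.91, 3.97 and 3.73 in the HDAC5 experiment and 3.81, 4.68 and 4.43 against 4.42, 6.88 and 4.19 in the LSD1 experiment. INHBE fell 40.1-fold with HDAC5 shRNA, to values below the lower quartile of genes, where its group means also lay in the LSD1 experiment, so these sizes are uncertain; the LSD1 change of 0.86 rested on replicate 2 and was 0.0 without it. ASNS, asparagine synthetase, had 12.69, 12.77 and 12.80 against 10.29, 10.24 and 10.31 in the HDAC5 experiment and 9.70, 11.17 and 10.62 against 10.27, 12.53 and 10.58 in the LSD1 experiment. It fell 5.56-fold with HDAC5 shRNA and overlapped between groups in the LSD1 experiment, where the tagged scramble arrays alone spanned more than 1 log2 unit. GDF15, a stress-induced cytokine, and TXNIP, the thioredoxin inhibitor, fell 13.7-fold and 7.72-fold with HDAC5 shRNA, with uncalled LSD1 changes of 1.93 and 1.59; a second GDF15 probe set gave a difference of -0.41 that was not called. CTH, of cysteine synthesis, and ASS1, argininosuccinate synthase, fell 7.69-fold and 8.88-fold. The ATF4 list means were -1.69, -1.67 and -1.65 on the HDAC5 shRNA arrays and -0.05, 0.67 and 0.02 on the LSD1 shRNA arrays. As with the replication genes, the scramble sets differed, by a median of 1.2 for the ATF4 list and 0.87 for the amino acid list after joint quantile normalization. Endoplasmic reticulum folding genes were split, 8 of 22 above 0 and 7 below, with the chaperone cofactors SDF2L1 (1.12) and CRELD2 (1.08) above and the chaperone DNAJB9 (-1.37) below.

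**Figure D3:**
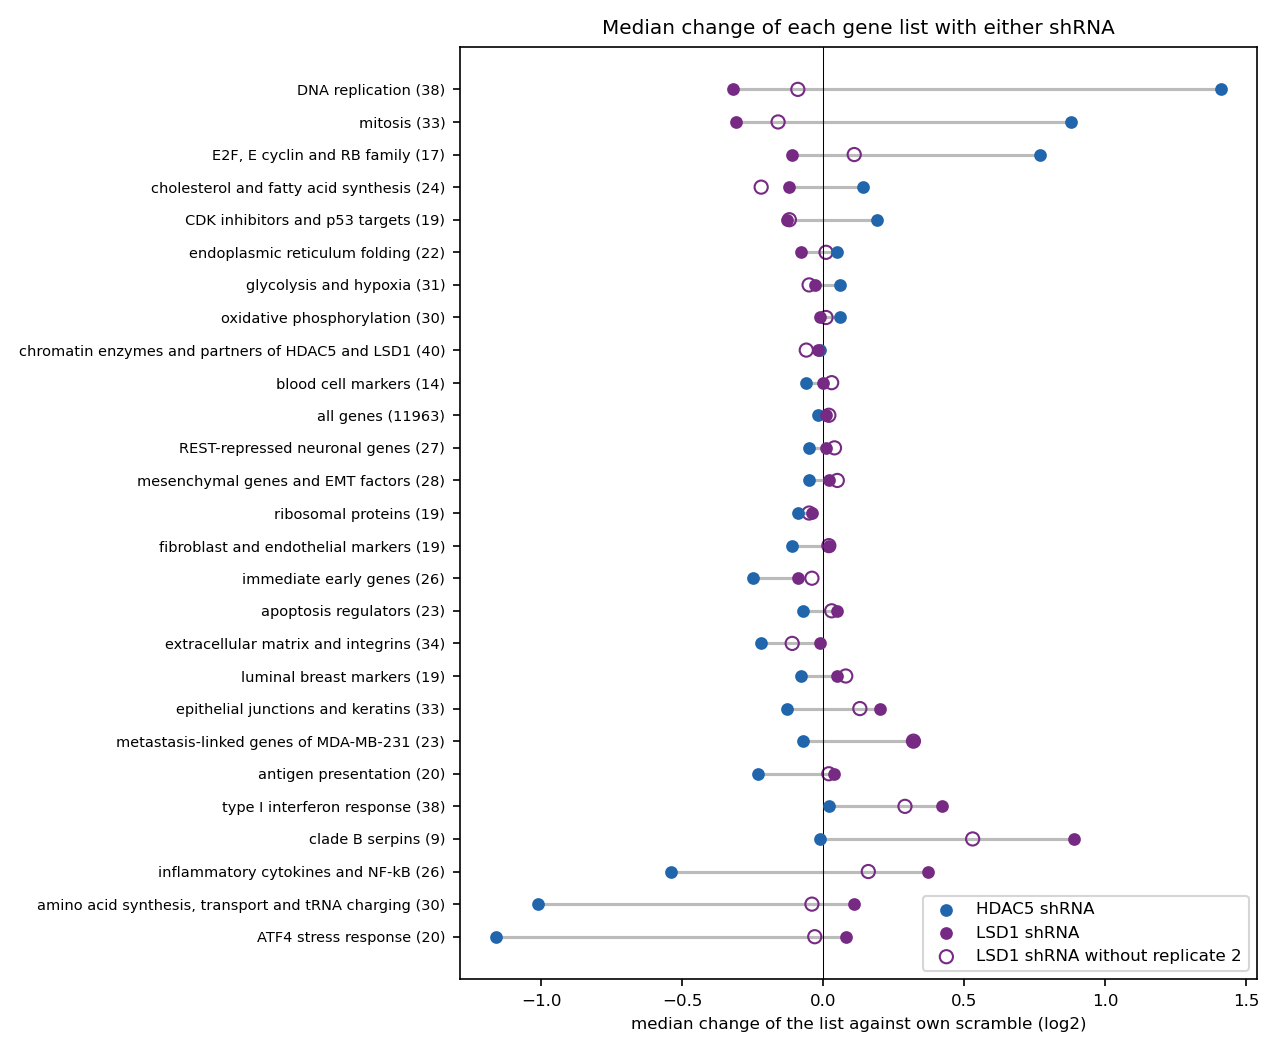
Median change of each gene list against its own scramble (x axis, log2; y axis, lists with the number of measured genes) with HDAC5 shRNA, with LSD1 shRNA and, as open circles, with LSD1 shRNA without replicate 2. DNA replication and mitosis lie at 1.41 and 0.88 and the ATF4 and amino acid lists at -1.16 and -1.01 with HDAC5 shRNA, while the LSD1 medians of these lists lie within 0.32 of 0.

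The interferon list held 4 concordant members and 1 LSD1-specific member, IFI44L. Of all genes, 0.995% were concordant and 2.17% LSD1-specific. Of 38 measured genes of the type I interferon response, 15 had a difference below 0 and 2 above, with median changes of 0.02 with HDAC5 shRNA and 0.42 with LSD1 shRNA. IFI44, the ubiquitin-like ISG15, the RNA sensor RIGI and the GTPase GBP1 rose with both, by 1.0, 0.69, 0.29 and 0.53 with HDAC5 shRNA and by 1.31, 0.93, 0.89 and 0.95 with LSD1 shRNA. The list was not moved as a block by HDAC5 shRNA, which raised 15 and lowered 14 members; the 6 HDAC5-specific members that fell included the membrane proteins IFITM1 (-0.96) and BST2 (-0.62), picked out after their values were seen. ISG20, an exonuclease, had a difference of -1.6 and OAS1, which makes the activator of RNase L, -1.5. Of 20 antigen presentation genes, 7 had a difference below 0 and 1 above. PSMB9, an immunoproteasome subunit, had 7.58, 7.43 and 7.32 against 7.07, 7.04 and 7.20 in the HDAC5 experiment and 6.27, 6.48 and 6.12 against 7.69, 8.53 and 7.33 in the LSD1 experiment. It was opposite, with changes of -0.34 and 1.56, as was the class I molecule HLA-E with -0.62 and 0.54. The peptide transporter TAP1 fell by 0.37 with HDAC5 shRNA and had an uncalled LSD1 change of 0.5. Class I HLA genes are near-identical in sequence and their probe sets may share signal.

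Of 26 inflammatory cytokine and NF-kB genes, 14 had a difference below 0 and 1 above, with median changes of -0.54 and 0.37. HDAC5 shRNA lowered 17 of them and LSD1 shRNA gave no limma call in either direction, with 10 higher and none lower at an unadjusted p under 0.05. PTGS2, the inducible prostaglandin synthase COX-2, had 9.62, 9.88 and 9.59 against 7.65, 7.94 and 7.94 in the HDAC5 experiment and 5.84, 8.01 and 7.86 against 8.57, 10.41 and 9.30 in the LSD1 experiment. All LSD1 shRNA arrays lay above their scramble arrays, yet the change of 2.19 was not called (limma adjusted p = 0.123). CXCL8, interleukin 8, had changes of -1.29 and 2.04 and IL1A, interleukin 1 alpha, -1.52 and 1.99, with both LSD1 changes uncalled. A second IL1A probe set had a difference of -0.22, not called. IL1A lay below the lower quartile of genes in the HDAC5 shRNA and tagged scramble groups. The list means were 0.28, 1.15 and 0.32 on the LSD1 shRNA arrays, so the direction was shared and replicate 2 was the highest. Without it the median LSD1 change was 0.16 and the counts stayed at 14 and 1.

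The epithelial list held 5 opposite genes, the most of any list. Of 33 measured epithelial junction and keratin genes, 14 had a difference below 0 and 1, EPCAM, above. The opposite members were the cadherins CDH1 and CDH3, the claudins CLDN1 and CLDN7 and the keratin KRT15. CDH1, E-cadherin, had 3.71, 3.53 and 3.53 against 3.46, 3.20 and 3.21 in the HDAC5 experiment and 3.99, 4.13 and 4.43 against 6.18, 6.31 and 6.71 in the LSD1 experiment. It rose 4.64-fold with LSD1 shRNA from below the lower quartile of genes, and the HDAC5 change of -0.3 took place below that quartile; a second CDH1 probe set gave -0.24 and was not called. KRT15 had changes of -1.23 and 2.1 and CLDN7 -1.19 and 2.07. CLDN7 left the opposite class without LSD1 shRNA replicate 2 (LSD1 change 1.88, limma adjusted p = 0.0606). Its tagged scramble arrays were uneven, at 6.05, 7.43 and 7.33. Of 28 mesenchymal genes and EMT factors, 5 had a difference above 0 and 5 below: FN1, fibronectin, had changes of -0.47 and 2.31, and TCF4, an E-box factor, -0.17 and 2.74, whereas CDH11 had -0.37 and -3.7. The 2 directions stood side by side within this list, so neither knockdown moved it as a whole. TCF4 lay below the lower quartile of genes in the tagged scramble group. Its 6 other probe sets had smaller LSD1 changes, from 0.36 to 1.56.

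The largest LSD1-specific difference was that of the matrix gene COL3A1. Of 34 extracellular matrix and integrin genes, 10 had a difference below 0 and 1 above, and the 4 LSD1-specific members that rose were COL3A1, SPP1, the collagen chain COL5A2 (1.97) and the proteoglycan LUM (1.54). HDAC5 shRNA lowered 20 of the 34, among them TNC, tenascin C, with changes of -1.31 and 1.59; the latter was not called and a second TNC probe set gave a difference of 0.02. Of 9 clade B serpins, 4 had a difference below 0 and 1, SERPINB9, above. SERPINB3, SERPINB5 and SERPINB7 were LSD1-specific with rises of 1.68, 1.77 and 6.38, and SERPINB8 rose with both, by 0.34 and 0.89. Like SERPINB7, SERPINB3 lay below the lower quartile of genes in every group but LSD1 shRNA. Of 23 genes linked to metastasis of this line, 9 had a difference below 0 and 3 above. The most unequal were IL13RA2, SPP1 and PTGS2, described above. Median changes of the list were -0.07 with HDAC5 shRNA and 0.32 with LSD1 shRNA, which raised 3 members and lowered 0 by call. LSD1 shRNA array means of the list were 0.77, 1.30 and 0.97 and HDAC5 shRNA array means -0.23, -0.15 and -0.14. Large changes such as those of IL13RA2 and SPP1 weigh on these means more than on the medians.

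Immediate early genes had 4 of 26 above 0 and 6 below. ATF3, a stress-induced factor, had changes of -1.92 and 0.82, KLF4, a zinc-finger factor, -1.36 and -0.12, and IER3, an NF-kB target, -1.09 and 0.51. Apoptosis regulators had 6 of 23 above 0 and 5 below. The inflammatory caspase CASP4 was opposite with -0.99 and 0.99. Its arrays did not overlap in either experiment, as held for 50.8% of all genes in the HDAC5 experiment and 27% in the LSD1 experiment. APAF1, the scaffold of the apoptosome, rose by 1.35 with HDAC5 shRNA, although both other APAF1 probe sets gave uncalled differences of 0.07 and 0.15, and BID, a BH3-only protein, rose by 0.33.

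Metabolic lists held members on both sides. Glycolysis and hypoxia genes had 11 of 31 above 0 and 2 below, with PKM, pyruvate kinase, at 0.81, the glucose transporter SLC2A3 at -1.81 and the hypoxia factor EPAS1 at -0.89, with an uncalled -0.34 for a second EPAS1 probe set. Oxidative phosphorylation genes had 8 of 30 above 0 and 3 below. Its leading members were COX5B, a cytochrome oxidase subunit that was opposite with -0.15 and 0.52, the ATP synthase subunit ATP5MC1 (0.66) and the complex I subunit NDUFS3 (0.51). Cholesterol and fatty acid synthesis genes had 4 of 24 above 0 and 1 below, with EBP at 1.09, NSDHL at 0.94 and SC5D at -0.95 (an uncalled -0.37 for a second SC5D probe set); the tagged scramble arrays differed among themselves here, with list means of -0.50, 0.31 and 0.20. Ribosomal protein genes had 5 of 19 below 0 and none above (6 and none at an unadjusted p under 0.05, limma), with small sizes: RPL8 at -0.33, RPL30 at -0.23 and RPL3 at -0.2. RPL30 and RPL3 were no longer called when each array was centred on its median, and RPL3 was also lost after quantile normalization (limma adjusted p = 0.0851), without the mean-variance trend (0.105), with the replicate block (0.0666) and without untagged scramble 2 or 3, HDAC5 shRNA 2 or 3, tagged scramble A or LSD1 shRNA 2 (limma adjusted p from 0.051 to 0.07).

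REST-repressed neuronal genes, a known target set of LSD1 with CoREST, had 3 of 27 above 0 and 4 below, a share close to that of all genes. SYT1, synaptotagmin 1, had 7.34, 7.29 and 7.29 against 6.31, 6.29 and 6.43 in the HDAC5 experiment and 5.77, 6.53 and 6.49 against 8.63, 9.58 and 8.75 in the LSD1 experiment. It was opposite, with changes of -0.96 and 2.72, as was SCG2, a secretory granule protein, with -0.31 and 2.21. TUBB3, neuronal tubulin, rose by 1.48 with HDAC5 shRNA, and REST itself had an LSD1-specific fall of 0.55. Of 40 chromatin enzymes and partners of HDAC5 and LSD1, 8 were above 0 and 8 below. KDM1A had the largest difference, and HDAC9, another class IIa deacetylase, had one as large as that of HDAC5 (-1.35 and -1.34), from changes of -0.26 and 1.09, the latter not called.

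Marker lists of other cell types were read against the 31.8% of all genes called for the difference. Of 14 blood cell markers, 1 had a difference below 0, CD3D, with changes of -0.15 and 0.77, neither called. Of 19 fibroblast and endothelial markers, 4 had a difference below 0, with list means of 0.20, 0.22 and 0.15 on LSD1 shRNA arrays and -0.12, -0.17 and -0.15 on HDAC5 shRNA arrays. ENG, endoglin, had changes of -0.25 and 0.93, ACTA2, smooth muscle actin, -0.65 and 1.07 (second probe sets gave uncalled differences of -0.22 for ENG and 0.21 for ACTA2), and LUM 0.1 and 1.54, with LUM below the lower quartile in all 4 groups. Of 19 luminal breast markers, 5 were below 0 and 2 above, a share close to that of all genes, with the trefoil factors TFF3 (-2.19) and TFF1 (-0.9) and the receptor ERBB3 (-1.25) among them. The ERBB3 call was lost without untagged scramble 1 or 3, HDAC5 shRNA 1 or 2, or tagged scramble A or C (limma adjusted p from 0.0577 to 0.0717), and with the replicate block (0.0537), and a second ERBB3 probe set gave an uncalled difference of -0.34. The part of other cells in the changes was not tested, and in a bulk sample fewer cells of a type and less RNA per cell cannot be told apart.

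The contrast was repeated without LSD1 shRNA replicate 2. The difference was then called for 3851 genes (32.2%), 3550 of them also called with all arrays. Concordant genes rose in number from 119 to 264, opposite genes stood at 219, HDAC5-specific genes at 2488 and LSD1-specific genes at 293. Of the original members, 83.1% of the genes that rose with both and 95.8% of those that fell with both kept their class, as did 88.2% of the genes up with HDAC5 and down with LSD1 shRNA and 80.9% of the reverse. HDAC5-specific genes kept their class in 91.9% (up) and 90.1% (down) and LSD1-specific genes in 85.9% and 87.5%. Several genes with a large HDAC5 change, kept out of the HDAC5-specific class by the 0.5 limit alone, entered it because their LSD1 change then fell under that limit: RRM2, GINS2, MCM10, E2F8, INHBE, CTH, ASS1 and ASNS. S100P left it, with an LSD1 change of -0.5, and TFF1 became a gene that fell with both. CLDN7 left the opposite class.

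The concordant, opposite and LSD1-specific classes depended on the arrays of the LSD1 experiment more than on any array of the HDAC5 experiment. Leaving out any array of the LSD1 experiment other than LSD1 shRNA replicate 2 lowered them by more than 1.5 times. Concordant genes then numbered 16 without scramble B, 19 without scramble C or LSD1 shRNA replicate 1, 34 without LSD1 shRNA replicate 3 and 60 without scramble A. Opposite genes numbered 25 without scramble C, 35 without scramble B, 47 and 68 without LSD1 shRNA replicates 1 and 3, and 78 without scramble A. LSD1-specific genes numbered 60 without scramble B or C, 84 and 104 without LSD1 shRNA replicates 1 and 3, and 130 without scramble A. The number of genes whose changes differ stayed between 3134 and 4130 and that of HDAC5-specific genes between 1955 and 2655.

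**Figure D4:**
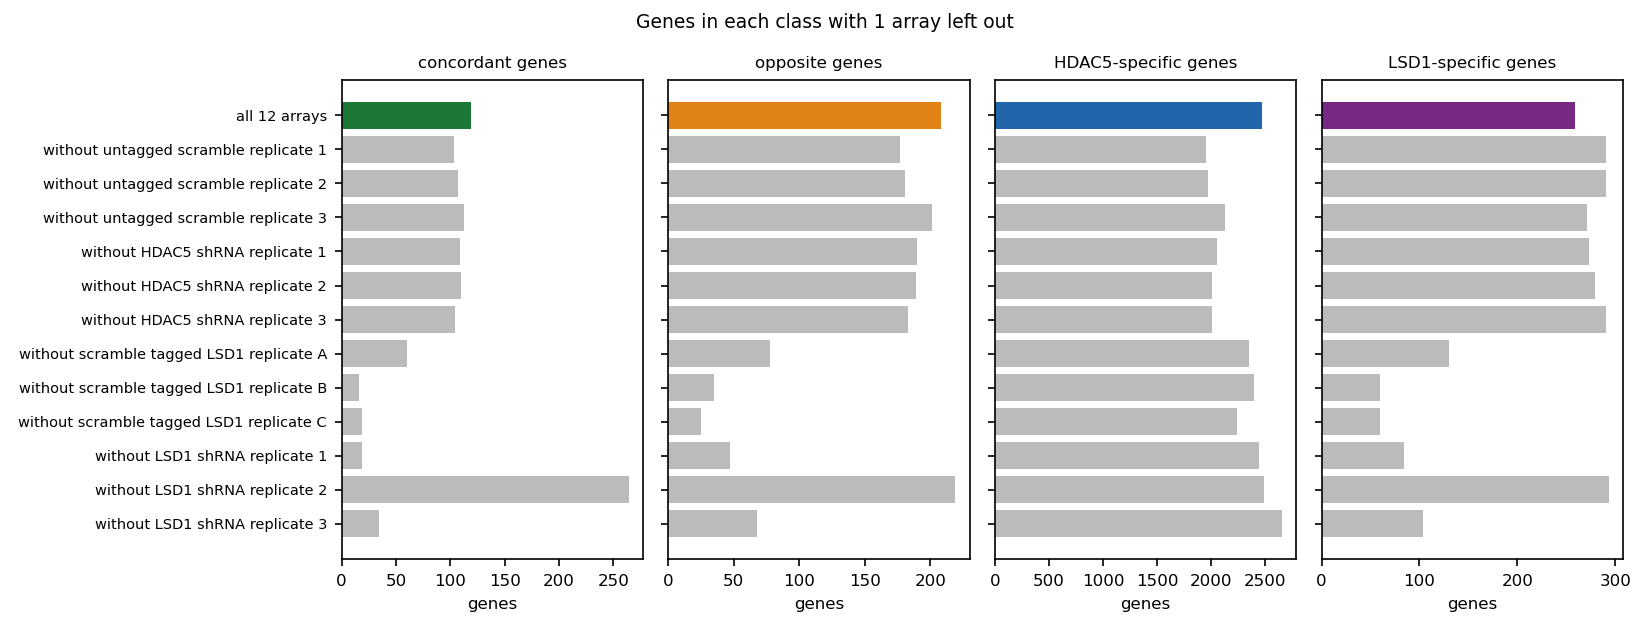
Number of genes in each class (x axes, genes) with all 12 arrays and with 1 array left out (y axis). The HDAC5-specific count stays between 1955 and 2655, while the concordant count runs from 16 to 264, with the highest value when LSD1 shRNA replicate 2 is left out.

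Promoter letters were counted in the classes and lists. Of the 11963 genes, 9562 had a RefSeq promoter window (250 bases before to 50 after the start), searched on both strands. The E2F motifs TTTCCCGC or TTTGGCGC were in 3.33% of all these windows, in 6% of the HDAC5-specific rising genes, in 10.4% of those that rose 2-fold or more and in 15 of 34 DNA replication genes (44.1%). The CHR letters TTTGAA were in 11% of all windows and 23.2% of the HDAC5-specific genes that rose 2-fold or more, and in 16 of 26 mitosis genes (61.5%). Among genes that rose with HDAC5 shRNA and fell with LSD1 shRNA the share was 12.5% (10 of 80), close to that of all windows. The CHR letters were also in 28.3% of the LSD1-specific genes that rose 2-fold or more (13 of 46) and in 17.9% of all LSD1-specific rising genes. The median share of G and C bases in the windows of these 2 sets was 50.7% and 59.7%, against 64% in all windows. It was 60.3% in the genes that rose with both. The part of base composition in the motif shares was not tested. CCAAT was in 37.3% of all windows, 59.2% of the HDAC5-specific genes that rose 2-fold or more and 80.8% of the mitosis genes. The ATF4-C/EBP element TGATGNAA was in 2.25% of all windows, 5.21% of the HDAC5-specific genes that fell 2-fold or more, 4 of 17 ATF4 list genes (23.5%) and 8 of 24 amino acid genes (33.3%). The interferon element (GAAA, any 2 bases, GAAA) was in 2.97% of all windows, 8.93% of the genes that rose with both, 7.32% of the LSD1-specific rising genes and 19 of 29 interferon genes (65.5%). These shares are descriptions, without a test, and rest on 5 of 56 and 9 of 123 genes in the last 2 classes.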

How the data were processed

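RNA of 12 cultures was measured on Affymetrix human 3′ expression arrays of 22277 probe sets. The authors deposited log2 values made with RMA in affy, per the submitters' processing notes; the sources used here give no versions and do not say whether RMA was run on both experiments at once. Probe sets with several symbols (1043), none (2108) and controls (62) were left out. Each change was fitted with limma 3.58.1 in R 4.3.3 (lmFit, eBayes with trend) on the 6 arrays of its experiment, and the difference on all 12 arrays. Calls use a Benjamini-Hochberg adjusted p under 0.05 over 11963 genes. The uncalled change had to be under 0.5 (log2) in the enzyme-specific classes. The labels say biological replicates, and the p-values measure the spread between these samples. The number of arrays limits the precision. Values of different probe sets are not compared as levels.

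The named genes are the targets, 5 genes per class and direction (concordant: largest smaller change of the pair; others: largest difference, without overlap of the arrays) and up to 3 members per list called for the difference with the largest difference. The contrast, its classes and the gene lists were chosen with earlier results of these data known. In the HDAC5 experiment the deviations of same-numbered arrays from their group means had r = -0.05, -0.21 and -0.15, so the numbers do not pair them. In the LSD1 experiment scramble arrays carry letters, so the labels give no pairs, and no block was fitted. There the deviations of scramble A had r = 0.37, -0.5 and 0.38 with those of LSD1 shRNA replicates 1, 2 and 3. For scramble B these were -0.37, 0.6 and -0.51, and for C -0.11, 0.03 and 0.06. The cause of this shared variation was not tested. Alternatives changed the probe set rule, normalization, weights, trend, block, fit and limits, and left out each array. The fits were tested on simulated data.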

Additional observations from a re-analysis of the deposited data

Results flagged for a closer look

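The comparisons above use probe sets with a single gene symbol. Probe sets left out of them were called too. Of 1043 probe sets that name several genes, 283 (27.1%) were called for the difference (limma, adjusted over all probe sets but the controls). Of 2108 probe sets without a symbol, 314 (14.9%) were called. Both shares lay below the 31.8% of the genes used above, a share that was adjusted over those genes alone. The genes measured by these probe sets cannot be named from the tables used here.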

How the results depend on the processing

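Over 105 named genes, 95 stayed on the same side of the threshold with the same sign in every alternative that gave them a value. The sign of the difference turned for COL15A1 (from -0.19 to 0.01) after quantile normalization over 12 arrays, and for EGFR (0.24 to -0.08) and COL6A2 (0.15 to -0.2) when all probe sets of a gene were averaged; none of these was called under any of those settings. With all calls from 1 fit of 12 arrays, which shares one spread between the experiments, there were 296 concordant, 588 opposite, 951 LSD1-specific and 1782 HDAC5-specific genes. With at least 2-fold in each called change there were 2 concordant, 12 opposite, 266 HDAC5-specific and 80 LSD1-specific genes, and 903 genes differed by that much. Without scramble array B and LSD1 shRNA array 2 together there were 25 concordant, 34 opposite and 57 LSD1-specific genes. Leaving out 1 array at a time gave 3134 to 4130 genes that differ, 16 to 264 concordant, 25 to 219 opposite, 1955 to 2655 HDAC5-specific and 60 to 293 LSD1-specific genes. With fewer arrays the test has less to estimate its spread from; no other cause was tested. With the replicate number as a block in the HDAC5 experiment, 3035 genes differed, 109 were concordant, 198 opposite, 1922 HDAC5-specific and 268 LSD1-specific; the numbers did not pair the samples. Median centring moved the share of calls above 0 from 49.4% to 57%.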
